A study of Mus musculus with 6 samples.

Results

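The elastic fibre and microfibril genes comprise 10 genes: *Eln*, *Fbn1*, *Fbn2*, *Fbln1*, *Fbln2*, *Fbln5*, *Efemp2*, *Emilin1*, *Mfap2* and *Mfap5*. They were taken by gene symbol from the 23284 genes listed in each sample, and all 10 were found. RNA-seq had been performed on ECFP+ osteoblasts (OBs) sorted from ectopic bone, with 3 samples of day 10 and 3 samples of day 14 after implantation. Both groups came from male *Col2.3*-ECFP mice aged 12 to 16 weeks that carried a collagen sponge with 2.5 μg of BMP-2 under the skin, so the days shared genotype, carrier and agent. In this transgene a fragment of the type I collagen promoter drives the cyan fluorescent protein, and the sort therefore keeps any CD45- living cell in which that promoter is active. Bone pieces of day 10 received collagenase II 1 time and those of day 14 received it 2 times, so the digestion and the day cannot be told apart. The titles place all 3 later samples on day 14, whereas free-text descriptions give days 14, 15 and 16 for replicates 1, 2 and 3. Values are FPKM, read counts per gene that were divided by transcript length and by the mapped reads of the library.

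Elastic fibres consist of a core of cross-linked elastin, encoded by *Eln*, within a sheath of microfibrils. Fibrillins, the products of *Fbn1* and *Fbn2*, are the long glycoproteins of which microfibrils are built, and they also hold latent TGF-β and BMP complexes in the matrix. Microfibril-associated glycoproteins (*Mfap2*, *Mfap5*) bind fibrillin, the short fibulins (*Fbln5* and *Efemp2*, the latter encoding fibulin-4) bring tropoelastin and lysyl oxidase to the microfibril, and EMILIN1 lies at the border of core and sheath. In bone, fibrillin microfibrils lie in the collagenous matrix laid down by OBs, where they are known to limit the release of growth factors. Elastin itself is a minor product of mature bone and a main product of vessel walls, lung, ligament and skin.

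The depth of the 6 samples, estimated from the steps between low FPKM values, was between 4550000 and 7776000 reads. A floor of 3 reads on 1000 usable bases equalled 0.386 to 0.659 FPKM, which allows for counting error alone. The members lay well above it, with estimated reads from 303 for *Fbn2* in day 10 replicate 1 to 39226 for *Fbln2* in day 14 replicate 3. All 7 OB markers were detected in every sample, led by *Col1a1*, the main collagen of bone, at 14151 to 34157 FPKM and by *Ibsp*, bone sialoprotein, at 1293 to 25254 FPKM. *Ptprc*, which encodes the CD45 used for the gate, lay between 0.134 and 2.99 FPKM. Day 14 replicate 2 stood apart from the other samples of its day. Its *Ibsp* was 15632 FPKM against 3460 and 1293 in replicates 1 and 3, and its *Col2a1*, the main collagen of cartilage, was 688 FPKM against 12.1 and 8.75.

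All 10 members had a higher mean of log2(FPKM + 0.1), the quantity that limma compares, on day 14 than on day 10, and *Fbln1*, *Mfap5* and *Fbln5* differed by more than 2-fold. Over all 19526 genes tested, 46.5% had a log2 fold change above 0 and 5.25% were over 2-fold higher. The median log2 fold change was 0.71 for the members and −0.04 for all genes tested. Without replicate 3 of day 14 the median of the members was 0.44, and without replicate 2 of day 14 it was 1.04. Counts of genes with a higher or lower mean on day 14 refer to this log2 scale throughout. Among the 4605 genes with a mean of at least 10 FPKM, a range that holds all members, 54.7% had a higher mean on day 14, 4.13% were over 2-fold higher, 15.7% were higher without overlap between the days, 14.4% were higher with an unadjusted p under 0.05 from limma, and the median was 0.04. In *Fbln1* and *Fbln5* all 3 samples of day 14 lay above those of day 10, which held for 7.59% of all genes. Limma gave an unadjusted p under 0.05 for 3 members, with 5.6% of all genes higher at that level. After Benjamini-Hochberg adjustment over all genes, no member had an adjusted p under 0.05 from limma, and 0.0154% of all genes did. With all 6 samples, none of the differences below therefore passed the adjusted test. FPKM is a share of each library, and in bulk samples fewer cells of a type and less RNA per cell cannot be told apart.

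**Figure D1:**
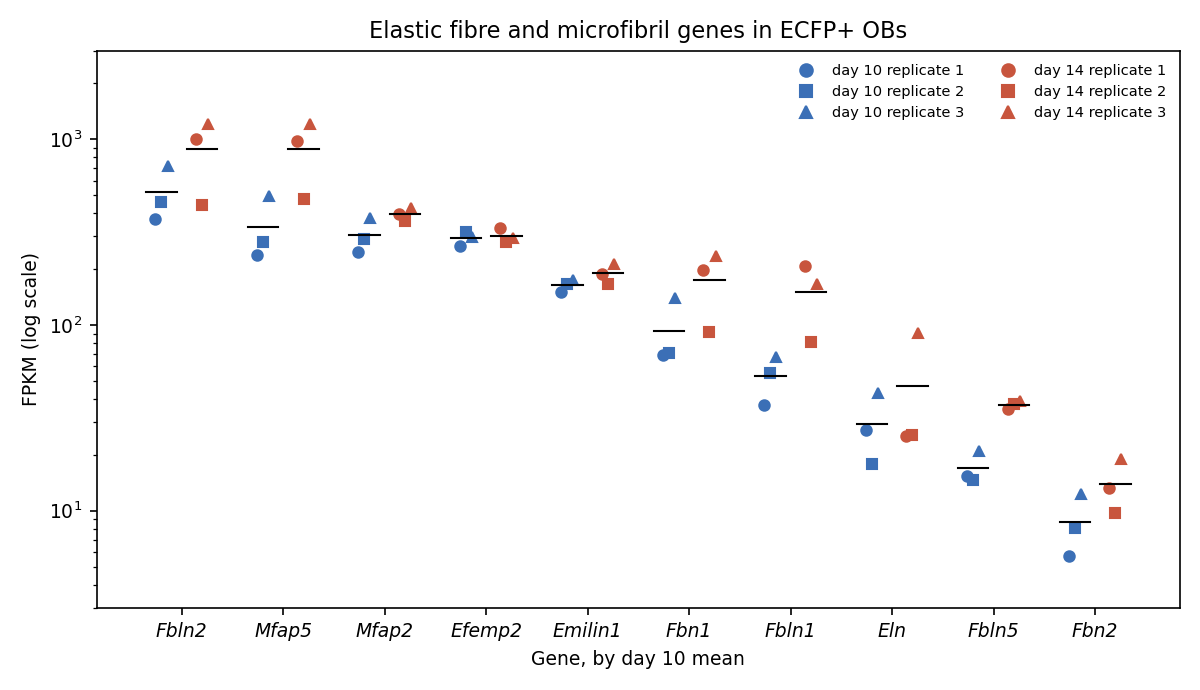
FPKM of the 10 members in each sample on a log axis, with points for the 3 samples of day 10 and the 3 samples of day 14. *Fbln1* and *Fbln5* are the members whose days do not overlap.

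*Eln*, on the minus strand of chromosome 5 from 134702593 to 134747323 (mm10, GENCODE vM21), was measured at 27.2, 17.8 and 42.8 FPKM in day 10 replicates 1, 2 and 3 and at 25.2, 25.6 and 90.2 FPKM in day 14 replicates 1, 2 and 3. The days overlapped, and only replicate 3 of day 14 was above all day 10 samples. The means were 29.3 ± 12.6 and 47.0 ± 37.4 FPKM (SD, n = 3 each), with a log2 fold change of 0.49 (limma, standard error 0.51, 95% interval −0.67 to 1.66, adjusted p = 0.815). Without replicate 3 of day 14 the log2 fold change was −0.115. The direction of the *Eln* difference thus rested on a single sample.

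*Fbn1* encodes fibrillin-1, the main fibrillin of postnatal tissue, and lies on the minus strand of chromosome 2 from 125300594 to 125507993. It was measured at 68.9, 70.8 and 139.6 FPKM in day 10 replicates 1, 2 and 3 and at 199, 91.5 and 234 FPKM in day 14 replicates 1, 2 and 3. Replicates 1 and 3 of day 14 were above every day 10 sample, whereas replicate 2 of day 14 lay below replicate 3 of day 10. The means were 93.1 ± 40.3 and 175 ± 74.4 FPKM (SD, n = 3 each), with a log2 fold change of 0.88 (limma, standard error 0.39, 95% interval −0.02 to 1.78, adjusted p = 0.508). Without replicate 2 of day 14 the days no longer overlapped and the log2 fold change was 1.30 (limma, adjusted p = 0.135). Without replicate 3 of day 14 the days overlapped and the log2 fold change was 0.616 (limma, adjusted p = 0.848).

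*Fbn2*, on the minus strand of chromosome 18 from 58008623 to 58210487, encodes fibrillin-2, known mainly from developing tissue. Its values were 5.72, 8.10 and 12.3 FPKM in day 10 replicates 1, 2 and 3 and 13.3, 9.71 and 19 FPKM in day 14 replicates 1, 2 and 3. Again replicate 2 of day 14 fell within the range of day 10 and the other day 14 samples lay above it. The log2 fold change was 0.70 (limma, standard error 0.33, adjusted p = 0.531), and without that replicate it was 0.93 (limma, adjusted p = 0.275). With replicate 3 of day 14 left out instead, it was 0.451 (limma, adjusted p = 0.873). Within each sample *Fbn1* exceeded *Fbn2*, by 11.9, 8.65 and 11.3 times on day 10 and by 14.9, 9.33 and 12.3 times on day 14. The geometric mean ratios of 10.5 and 11.9 overlapped between the days and differed by 0.19 on the log2 scale (two-sided exact permutation p = 0.4, adjusted p = 0.6 over 6 ratios).

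Fibulin-1, the product of *Fbln1*, binds fibronectin and proteoglycans and is found along elastic fibres and in basement membranes. *Fbln1*, on the plus strand of chromosome 15 from 85205949 to 85286535, was measured at 37.1, 55.0 and 66.9 FPKM in day 10 replicates 1, 2 and 3 and at 207, 80.9 and 165 FPKM in day 14 replicates 1, 2 and 3. All day 14 samples were above all day 10 samples. The means were 53.0 ± 15.0 and 151 ± 64.2 FPKM (SD, n = 3 each). The log2 fold change of 1.45 was the largest among the members (2.72-fold, limma, standard error 0.36, 95% interval 0.63 to 2.26, adjusted p = 0.305). A two-sided exact permutation test gave p = 0.1, below which 3 samples a day cannot go. Without replicate 2 of day 14 the log2 fold change was 1.84 and the adjusted p from limma was 0.0404, and under that setting 0.386% of all genes had an adjusted p under 0.05. Leaving out replicate 3 of day 14 instead gave a log2 fold change of 1.33 (limma, adjusted p = 0.642).

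*Fbln2* (chromosome 6, plus strand, 91212455 to 91272540) encodes fibulin-2, which bridges fibrillin, perlecan and other matrix proteins, and it had the highest mean FPKM of the members on both days, at 518 ± 182 and 890.2 ± 400 FPKM (SD, n = 3 each). Its values were 373, 458 and 723 FPKM in day 10 replicates 1, 2 and 3 and 1009.8, 444 and 1216 FPKM in day 14 replicates 1, 2 and 3. The days overlapped because replicate 2 of day 14 lay between the lower day 10 samples, while replicates 1 and 3 of day 14 were above all of day 10. The log2 fold change was 0.71 (limma, standard error 0.41, adjusted p = 0.616), and 1.15 without that replicate (limma, adjusted p = 0.168), when the days no longer overlapped. It was 0.427 without replicate 3 of day 14 (limma, adjusted p = 0.934). The *Fbln1* to *Fbln2* ratio within a sample was 0.0996, 0.12 and 0.0927 on day 10 and 0.205, 0.182 and 0.136 on day 14, without overlap. Its geometric mean went from 0.104 to 0.172, a difference of 0.73 on the log2 scale (two-sided exact permutation p = 0.1, adjusted p = 0.3 over 6 ratios).

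*Fbln5* (chromosome 12, minus strand, 101746565 to 101819055) encodes fibulin-5, which binds tropoelastin, LOXL1 and integrins. It was measured at 15.4, 14.6 and 21.0 FPKM in day 10 replicates 1, 2 and 3 and at 35.3, 37.7 and 39.0 FPKM in day 14 replicates 1, 2 and 3. The samples within each day lay close together, and the days did not overlap. The means were 17.0 ± 3.47 and 37.3 ± 1.88 FPKM (SD, n = 3 each), and the log2 fold change was 1.15 (2.22-fold, standard error 0.18, 95% interval 0.75 to 1.55). *Fbln5* had the smallest p of the members, with an unadjusted p of 0.000144 and an adjusted p of 0.165 from limma (two-sided exact permutation test, p = 0.1). Unlike the other members with a difference over 2-fold, its value in replicate 2 of day 14 lay between those of replicates 1 and 3.

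*Efemp2* (chromosome 19, plus strand, 5473954 to 5482517) encodes fibulin-4, which carries lysyl oxidase to elastin and is also needed for collagen cross-linking. Its values were 266, 318 and 299 FPKM in day 10 replicates 1, 2 and 3 and 332, 278 and 295 FPKM in day 14 replicates 1, 2 and 3, and the days overlapped. The means were 294 ± 26.4 and 302 ± 27.7 FPKM (SD, n = 3 each), with a log2 fold change of 0.04 (limma, standard error 0.17, 95% interval −0.35 to 0.42, adjusted p = 0.972). Without replicate 1 of either day the log2 fold change was −0.034. The interval excludes a 2-fold difference in either direction. *Mus81* overlaps *Efemp2* on the opposite strand, and since no strand setting is stated for the counting, their reads in the overlap cannot be told apart.

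The ratio of *Efemp2* to *Fbln5*, the short fibulins that act in elastin assembly, was 17.2, 21.6 and 14.2 on day 10 and 9.40, 7.37 and 7.54 on day 14. Every day 14 ratio was below every day 10 ratio. The geometric mean went from 17.4 to 8.06, a difference of −1.11 on the log2 scale (two-sided exact permutation p = 0.1, adjusted p = 0.3 over 6 ratios). The level of *Efemp2* stayed above that of *Fbln5* in each of the 6 samples.

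*Emilin1* (chromosome 5, plus strand, 30913402 to 30921277) encodes an elastin-microfibril interface protein that also restrains TGF-β processing. It was measured at 151, 166 and 174 FPKM in day 10 replicates 1, 2 and 3 and at 188, 167 and 213 FPKM in day 14 replicates 1, 2 and 3. Its range was narrow, and the days overlapped only through replicate 3 of day 10 and replicate 2 of day 14. The means were 164 ± 11.6 and 189.5 ± 23.1 FPKM (SD, n = 3 each), and the log2 fold change was 0.21 (limma, standard error 0.16, adjusted p = 0.743). *Eln* reached 0.181, 0.108 and 0.247 times the *Emilin1* level on day 10 and 0.134, 0.153 and 0.423 times on day 14, with overlap (two-sided exact permutation p = 0.7, adjusted p = 0.7 over 6 ratios).

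*Mfap2* and *Mfap5* encode the small microfibril-associated glycoproteins MAGP-1 and MAGP-2, both of which bind fibrillin. *Mfap2* (chromosome 4, plus strand, 141010418 to 141015984) was measured at 247, 290.4 and 379 FPKM in day 10 replicates 1, 2 and 3 and at 396, 365 and 426 FPKM in day 14 replicates 1, 2 and 3. The days overlapped only through replicate 3 of day 10 and replicate 2 of day 14, and the log2 fold change was 0.39 (limma, standard error 0.20, adjusted p = 0.582). *Mfap5* (chromosome 6, plus strand, 122505845 to 122529290) was measured at 238, 279.6 and 497 FPKM in day 10 replicates 1, 2 and 3 and at 977, 476 and 1208 FPKM in day 14 replicates 1, 2 and 3. Its days overlapped through the same pair of samples. The *Mfap5* means of 338 ± 139 and 887 ± 375 FPKM (SD, n = 3 each) gave a log2 fold change of 1.36 (2.57-fold, limma, standard error 0.40, 95% interval 0.45 to 2.27, adjusted p = 0.340). Without replicate 2 of day 14 the log2 fold change of *Mfap5* was 1.76 (limma, adjusted p = 0.0751). With replicate 3 of day 14 left out instead, it was 1.09 (limma, adjusted p = 0.678).

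*Mfap2* and *Mfap5* stood near parity on day 10, with ratios of 1.04, 1.04 and 0.762. On day 14 the ratios were 0.405, 0.768 and 0.353, so that *Mfap5* exceeded *Mfap2* in all 3 samples. The geometric mean ratio was 0.937 on day 10 and 0.479 on day 14, a difference of −0.97 on the log2 scale (two-sided exact permutation p = 0.2, adjusted p = 0.4 over 6 ratios). The days overlapped through replicate 3 of day 10 and replicate 2 of day 14, and without the latter the difference was −1.31. Without replicate 3 of day 14 the difference was −0.749. The ratio of *Eln* to *Fbn1*, core to sheath, was 0.396, 0.252 and 0.307 on day 10 and 0.127, 0.28 and 0.385 on day 14. It overlapped between the days (two-sided exact permutation p = 0.6, adjusted p = 0.7 over 6 ratios), and *Fbn1* exceeded *Eln* in every sample.

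**Figure D2:**
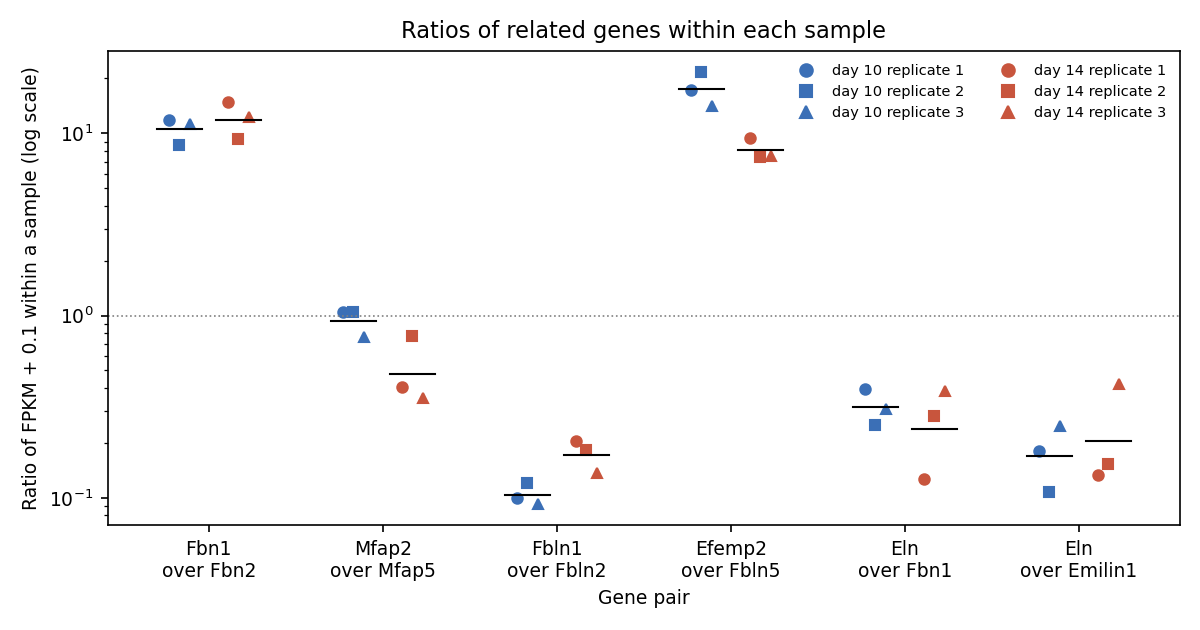
Within-sample ratios of 6 pairs of members on a log axis for the samples of day 10 and day 14. The *Fbln1* to *Fbln2* ratio was higher and the *Efemp2* to *Fbln5* ratio lower in every day 14 sample than in any day 10 sample.

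**Figure D3:**
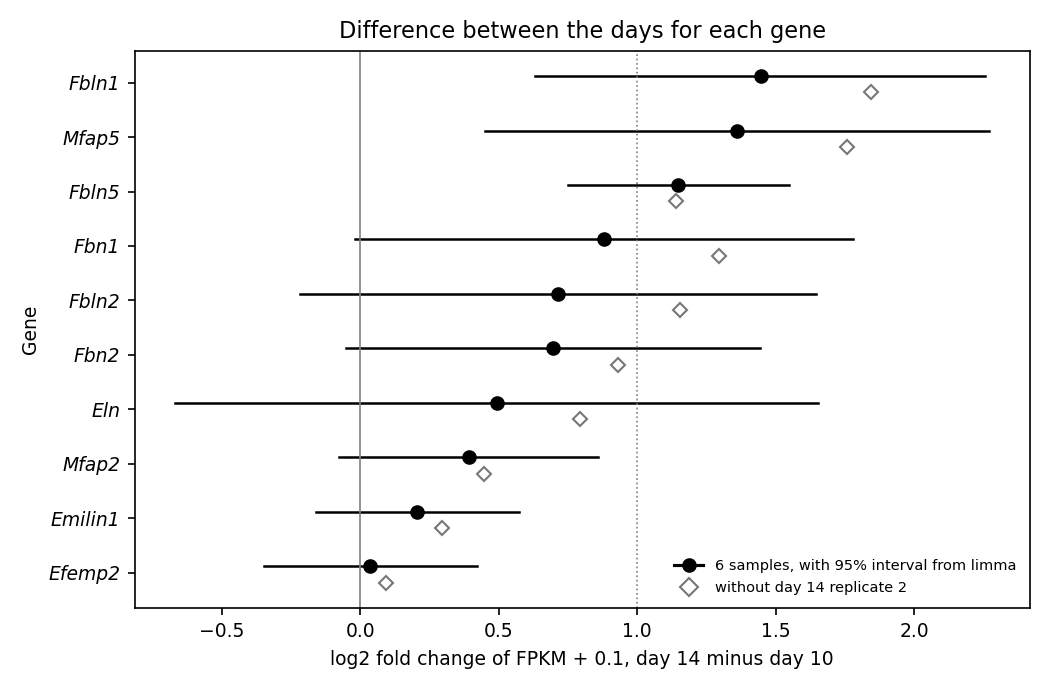
Log2 fold change of FPKM + 0.1 (day 14 over day 10) for each member, with 95% intervals from limma. All values lie above 0, and the intervals of *Fbln1*, *Fbln5* and *Mfap5* do not reach 0.

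On the FPKM scale, which divides by gene length, the order of the members by mean FPKM on day 10 was *Fbln2*, *Mfap5*, *Mfap2*, *Efemp2*, *Emilin1*, *Fbn1*, *Fbln1*, *Eln*, *Fbln5* and *Fbn2*. The samples of *Fbln2* and *Mfap5*, of *Mfap5* and *Mfap2*, and of *Mfap2* and *Efemp2* overlapped, as did those of *Fbln1* and *Eln* and of *Eln* and *Fbln5*. Within each of the 3 samples, however, *Fbln2* was above *Mfap5*, *Fbln1* above *Eln* and *Eln* above *Fbln5*, while *Mfap5* was above *Mfap2*, and *Mfap2* above *Efemp2*, in only 1 sample each. *Efemp2* and *Emilin1*, *Emilin1* and *Fbn1*, *Fbn1* and *Fbln1*, and *Fbln5* and *Fbn2* did not overlap. On day 14 the order by mean FPKM was the same. Within the samples of day 14, however, *Emilin1* was above *Fbn1*, and *Eln* above *Fbln5*, in only 1 sample each. *Fbln2* was above *Mfap5*, and *Fbn1* above *Fbln1*, in 2 samples each. The samples of *Fbln2* and *Mfap5* overlapped, those of *Mfap5* and *Mfap2*, of *Mfap2* and *Efemp2* and of *Efemp2* and *Emilin1* did not, neighbours from *Emilin1* down to *Fbln5* overlapped, and *Fbn2* was the lowest in every sample. By mean level among all listed genes, *Mfap5* was in place 146 on day 10 and place 55 on day 14, *Fbln2* in places 91 and 54, and *Fbn2* in places 4939 and 3625.

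The FPKM of all 10 members summed to 1430, 1678 and 2354 in day 10 replicates 1, 2 and 3 and to 3383, 1976 and 3907 in day 14 replicates 1, 2 and 3. They made up 0.307% to 0.545% of all FPKM of a sample on day 10 and 0.406% to 0.85% on day 14, with overlap through replicate 2 of day 14. Within this sum, *Mfap5* took 18.2% ± 2.58 of day 10 and 28.0% ± 3.52 of day 14 (SD, n = 3 each), without overlap. *Efemp2* took 16.7% ± 3.52 and 10.5% ± 3.32 (SD, n = 3 each), with overlap, and *Fbln2* took 28.0% on day 10 and 27.8% on day 14. These shares are a description and were not tested.

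Replicate 1 of day 10 was the lowest sample for 8 members and replicate 2 of day 10 for the other two. Replicate 3 of day 14 was the highest for 8 members and replicate 1 of day 14 for the rest. Replicates 1 and 3 of day 14 were each above every day 10 sample for 9 members, with *Eln* as the exception in replicate 1 and *Efemp2* in replicate 3. Replicate 2 of day 14 was above every day 10 sample for *Fbln1* and *Fbln5* only. Without replicate 2 of day 14, the days did not overlap for 8 members (15.3% of all genes), 5 members were over 2-fold higher (9.71%) and 6 reached an unadjusted p under 0.05 in limma (7.01%). Leaving out replicate 3 of day 10, the highest sample of its day for most members, gave 7 members without overlap (12.9% of all genes) and 6 with such a p (5.94%). Leaving out any other sample gave 2 members without overlap and 3 with such a p. Replicate 2 of day 14 and replicate 3 of day 10 lay nearest to the other day for most members. Leaving them out therefore favours members without overlap, a choice that the shares of all genes do not allow for.

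Windows around the annotated start sites are shown for the members whose days did not overlap and for the members with the smallest differences. Windows of 300 bases from RefSeq (GRCm38.p6) were used here for 7 of the 10 members, 1 for each. RefSeq gives 2 windows for *Fbln1*, *Fbln5* and *Mfap2* and 3 for *Efemp2*. Of these, only the window nearest the GENCODE gene start was searched. Each runs from 250 bases before to 50 bases after the start site. Each window was searched on both strands for TATAAA, the letters of a TATA motif, for GGGCGG, the GC box bound by Sp1, for TGANTCA, an AP-1 site, and for CAGACA, a SMAD box. They are printed 5′ to 3′ in the direction of the gene, with matches on either strand in capitals. The first is *Fbln1* at chr15:85205699-85205998 (plus strand), the second *Fbln5* at chr12:101819070-101819369 (minus strand), the third *Efemp2* at chr19:5473696-5473995 (plus strand) and the last *Emilin1* at chr5:30913536-30913835 (plus strand). The RefSeq start site lies 64 bases from the GENCODE gene start for *Fbln5*, 384 bases for *Emilin1*, 309 bases for *Fbln2* and 1555 bases for *Fbn1*.
*Fbln1*: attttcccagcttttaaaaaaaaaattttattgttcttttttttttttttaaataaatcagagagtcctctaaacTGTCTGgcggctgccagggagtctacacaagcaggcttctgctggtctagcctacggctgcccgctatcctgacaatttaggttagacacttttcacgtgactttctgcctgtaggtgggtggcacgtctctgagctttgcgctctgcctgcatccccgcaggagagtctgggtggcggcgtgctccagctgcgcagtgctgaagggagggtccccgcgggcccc
*Fbln5*: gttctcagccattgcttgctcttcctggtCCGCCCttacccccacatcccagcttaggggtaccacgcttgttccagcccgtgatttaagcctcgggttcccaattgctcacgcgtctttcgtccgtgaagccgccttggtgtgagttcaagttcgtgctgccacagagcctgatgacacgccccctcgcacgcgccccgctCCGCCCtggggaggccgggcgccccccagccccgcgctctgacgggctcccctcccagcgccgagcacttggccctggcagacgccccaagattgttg
*Efemp2*: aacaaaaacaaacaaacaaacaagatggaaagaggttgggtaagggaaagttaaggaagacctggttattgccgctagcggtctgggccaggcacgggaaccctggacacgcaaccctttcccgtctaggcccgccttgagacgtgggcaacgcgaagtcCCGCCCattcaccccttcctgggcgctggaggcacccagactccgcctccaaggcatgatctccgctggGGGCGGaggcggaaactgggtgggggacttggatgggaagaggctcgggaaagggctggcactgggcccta
*Emilin1*: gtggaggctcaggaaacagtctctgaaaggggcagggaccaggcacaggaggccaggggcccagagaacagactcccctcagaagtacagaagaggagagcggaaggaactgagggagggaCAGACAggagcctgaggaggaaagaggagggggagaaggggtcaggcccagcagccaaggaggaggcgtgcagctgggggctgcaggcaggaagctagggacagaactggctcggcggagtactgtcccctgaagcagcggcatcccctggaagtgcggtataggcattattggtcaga
The capitals mark a SMAD box in *Fbln1* and *Emilin1* and a pair of GC boxes in each of *Fbln5* and *Efemp2*.

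None of the 7 windows searched held the letters of the TATA box or of the AP-1 site, which 13.6% and 7.8% of all 32851 windows held. GC boxes were present in *Fbn1*, *Fbln2*, *Fbln5* and *Efemp2* (35.7% of all windows) and SMAD boxes in *Fbln1*, *Emilin1* and *Mfap2* (21.0% of all windows). *Fbln5* and *Efemp2*, whose ratio did not overlap between the days, both held 2 GC boxes and no other searched motif, as did *Fbln2*. *Fbln1*, *Emilin1* and *Mfap2* each held 1 SMAD box. A match is a description of letters and not evidence of binding.

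Genes that work with elastic fibres were compared through 6 lists with 44 genes, of which 42 were tested. *Elane* fell below the filter on the mean FPKM and *Hmcn2* was not analysed here. Of the 42 genes, 32 had a higher mean on day 14 and 10 a lower mean, with a median log2 fold change of 0.39 (0.22 without replicate 3 of day 14). An unadjusted p under 0.05 from limma was found for 11 genes higher and 1 gene lower on day 14, beside 5.6% and 4.4% of all genes, and none had an adjusted p under 0.05 from limma. The count of 11 was 7 without replicate 1 of day 10 or without replicate 3 of day 14. *Itgb5* had the smallest adjusted p, 0.292. It encodes the β5 integrin chain and was measured at 71.5, 90.3 and 106 FPKM on day 10 against 229, 143 and 193 FPKM on day 14, without overlap (2.10-fold).

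Latent TGF-β binding proteins attach latent TGF-β to fibrillin microfibrils. Of 4 tested, 3 had a higher mean on day 14 and 2 an unadjusted p under 0.05 from limma. *Ltbp3* was measured at 25.8, 32.1 and 30.1 FPKM on day 10 against 45.3, 39.6 and 51.6 FPKM on day 14 without overlap (adjusted p = 0.310 from limma). *Ltbp2*, which binds fibrillin-1 but not latent TGF-β, was measured at 29.3, 34.2 and 54.6 FPKM and at 99.3, 39.4 and 89.7 FPKM. As for *Fbn1*, its replicate 2 of day 14 lay within the range of day 10. *Ltbp1* was measured at 12.1 to 18.1 FPKM on day 10 against 11.6, 36.8 and 7.62 FPKM on day 14, where replicate 2 was the highest of all samples.

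Lysyl oxidases cross-link elastin and collagen. Of 5 tested, 4 had a higher and 1 a lower mean on day 14, and the median log2 fold change was 0.41. *Lox* was the most abundant, with means of 602 ± 49.5 and 624 ± 25.2 FPKM (SD, n = 3 each). *Loxl1*, the family member tied to elastin through fibulin-5, was measured at 37.1, 49.2 and 70.9 FPKM on day 10 against 126, 61.9 and 136 FPKM on day 14, with overlap (2.02-fold, adjusted p = 0.384 from limma). *Loxl3* had means of 73.9 ± 2.51 and 108 ± 29.3 FPKM (SD, n = 3 each). *Loxl4*, outside the rule for named genes and chosen because it was the only partner gene lower on day 14 with an unadjusted p under 0.05, was measured at 63.5, 39.1 and 25.7 FPKM and at 10.8, 37.2 and 6.52 FPKM (adjusted p = 0.445 from limma).

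The 8 elastin-degrading proteases tested all had a higher mean on day 14, with a median log2 fold change of 0.79. For 5 of them the days did not overlap, which held for 7.59% of all genes and 15.7% of those with a mean of at least 10 FPKM. Limma gave an unadjusted p under 0.05 for 4 (5.6% of all genes higher) and a smallest adjusted p of 0.340. *Mmp2* had means of 1057 ± 111 and 1384 ± 129 FPKM and *Mmp14*, which activates it, of 589 ± 96.7 and 764 ± 45.0 FPKM (SD, n = 3 each), both without overlap. *Ctsk*, the collagen- and elastin-degrading cathepsin K, was measured at 414, 425 and 403 FPKM on day 10 against 574, 600.1 and 614 FPKM on day 14 (adjusted p = 0.375 from limma). *Prtn3*, a protease of myeloid granules, was at 0, 0.715 and 0.168 FPKM on day 10 against 1.72, 1.33 and 1.67 FPKM on day 14, close to the value of a few reads. In contrast to *Fbn1* and *Fbln2*, replicate 2 of day 14 was above all day 10 samples for *Mmp2*, *Mmp14* and *Ctsk*.

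Of 9 ADAMTS and ADAMTS-like genes, which act on microfibril assembly, 5 had a higher mean on day 14. Without overlap, 2 were higher and 1 was lower, beside 1482 and 1302 of all 19526 genes tested. *Adamtsl1* was measured at 3.48, 5.19 and 7.72 FPKM on day 10 against 11.2, 8.28 and 15.0 FPKM on day 14 (2.13-fold, adjusted p = 0.347 from limma), *Adamtsl4* had means of 6.78 and 11.4 FPKM and *Adamts10* means of 14.4 and 14.5 FPKM. Of 7 integrin subunits, 6 had a higher mean. *Itgb1* had means of 234 and 259 FPKM, *Itga5* of 73.6 and 106 FPKM, and *Itga8* of 0.286 and 0.688 FPKM, the last without overlap and close to the value of a few reads. Of 9 fibulin, EMILIN and microfibril relatives, 6 had a higher mean and none an unadjusted p under 0.05 from limma, led by *Mfap4* (337 ± 139 and 488 ± 266 FPKM, SD, n = 3 each), *Emilin2* (22.3 and 25.8 FPKM) and *Efemp1* (16.1 and 22.1 FPKM).

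**Figure D4:**
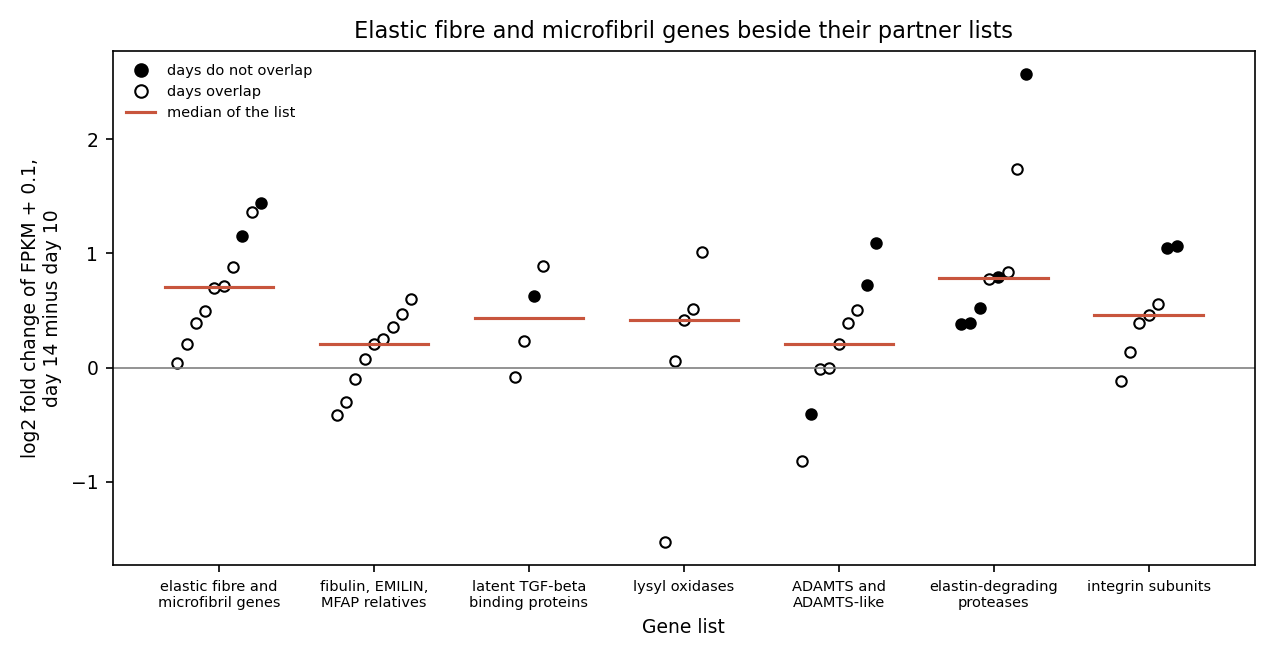
Log2 fold change of FPKM + 0.1 (day 14 over day 10) for each tested gene of the 6 partner lists, with the median of each list. The proteases have the highest median at 0.79 and all lie above 0.

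Markers of other cell types were set beside the members. The 8 connective tissue fibroblast markers, led by *Ly6a* (Sca-1) and *Col14a1*, summed to 323, 374 and 616 FPKM in day 10 replicates 1, 2 and 3 and to 857, 468 and 1271 FPKM in day 14 replicates 1, 2 and 3. By this sum the samples stood in the same order as by the sum of the members. *Ly6a*, with the highest mean of the list at 406 FPKM, *Col14a1* and *Cd34* each showed this order. *Pdgfra*, *Dpt*, *Pi16*, *Dpp4* and *Clec3b* did not. Of the 8 fibroblast markers 7 had a higher mean on day 14 (46.5% of all genes), with a median log2 fold change of 1.02. Over 2-fold higher were 4 (5.25% of all genes), and 3 reached an unadjusted p under 0.05 in limma (5.6% of all genes higher). The days overlapped for each of the 8 fibroblast markers, and their smallest adjusted p was 0.441 (limma). The 7 OB markers had a lower mean on day 14 in all cases, whereas 46.5% of all genes had a higher mean. Their sums were between 28368 and 54192 FPKM on day 10 and between 15669 and 38269 FPKM on day 14. The days overlapped for every OB marker except *Sp7*, and *Alpl* was highest in replicate 2 of day 14. Limma gave an unadjusted p under 0.05 for 2 OB markers (4.4% of all genes lower) and a smallest adjusted p of 0.309. The paper reported lower *Sp7* on the later day and no change in the remaining OB markers. No fibroblast or OB marker was at 0 in any sample. The part of the fibroblast and OB markers in the differences of the members was not tested.

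The other marker lists did not share the sample order of the members. The 10 chondrocyte markers, led by *Col2a1* and *Col11a2*, summed to 424 to 852 FPKM on day 10 and to 116, 1090.3 and 73.7 FPKM in day 14 replicates 1, 2 and 3, and 8 of them had a lower mean on day 14. The 8 endothelial markers, led by *Tek* and *Esam*, all had a higher mean on day 14 but summed to at most 8.42 FPKM in any sample. The 8 myeloid markers, led by *Lyz2* and *Tyrobp*, summed to 31.1 to 134 FPKM on day 10 and to 230, 11.5 and 549 FPKM on day 14, 6 of them with a higher mean. The 8 smooth muscle and pericyte markers, led by *Acta2* and *Tagln*, summed to 410 to 873 FPKM on day 10 and to 632 to 778 FPKM on day 14, with 4 higher and 4 lower. The 6 tendon and perichondrial markers, led by *Fmod* and *Tnmd*, summed to 978 to 1130 FPKM on day 10 and to 1307 to 1897 FPKM on day 14, 5 of them with a higher mean. Their part in the differences of the members was not tested.

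**Figure D5:**
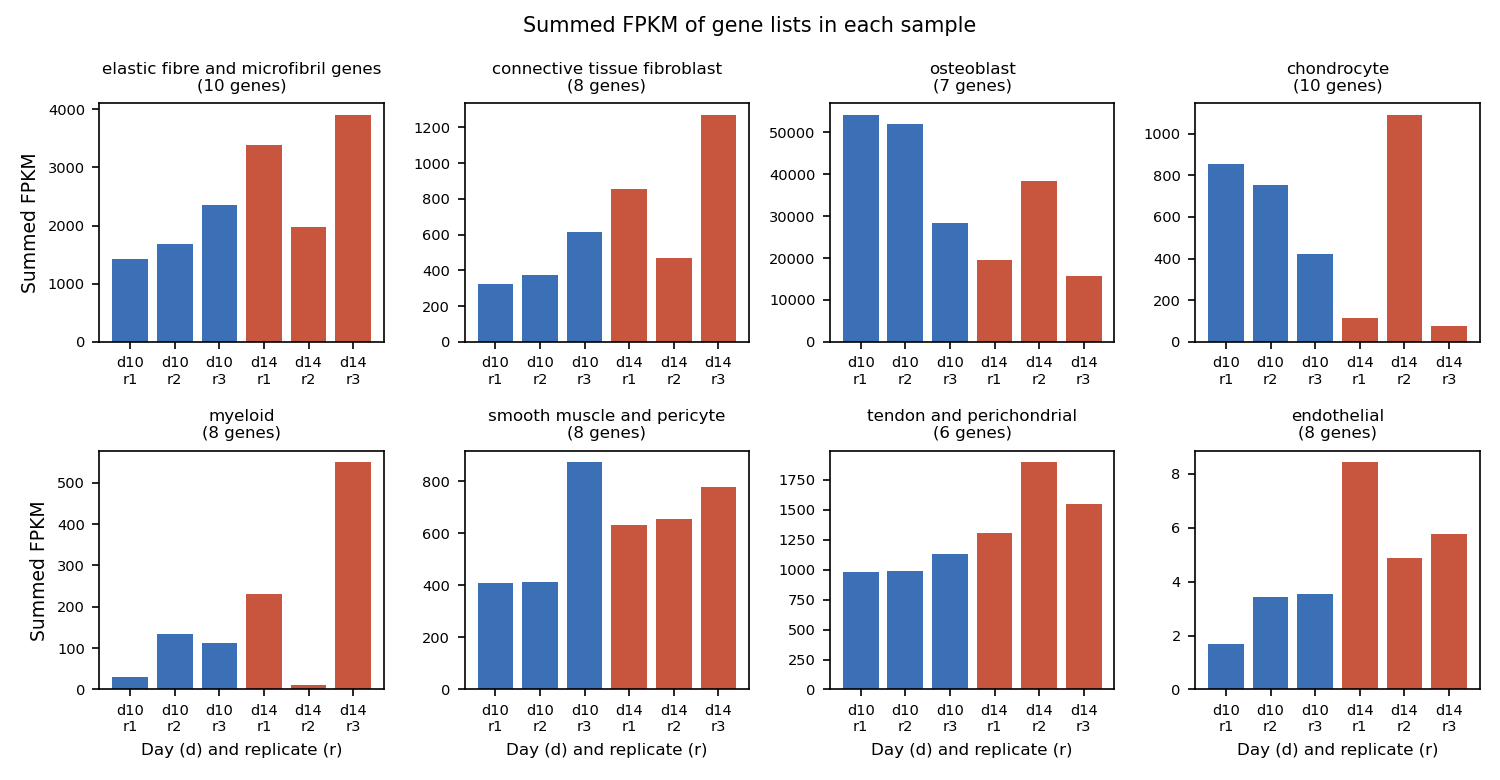
Summed FPKM of the members and of each marker list in the 6 samples. The members and the fibroblast markers are lowest in day 10 replicate 1 and highest in day 14 replicate 3. By their sum the OB markers are highest in day 10 replicate 1 and lowest in day 14 replicate 3. Among the single OB markers this holds only for *Sp7* and *Ibsp*.

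The genes most like *Eln*, *Fbn1* and *Fbln2* were named by the root mean square distance between centred log2(FPKM + 0.1) profiles over the 6 samples, among 11162 genes with a mean of at least 1 FPKM. For *Fbn1* they were *Ly6a* (0.097), *Rab32* (0.098), *Vipr2* (0.107), *Il11ra1* (0.114) and *Mgst1* (0.122), with *Fbln2* in place 9 (0.132). For *Fbln2* they were *Gpr124* (0.035), *Il11ra1* (0.067), *Ddah1* (0.093), *Plac8* (0.098) and *Cd248* (0.104), with *Fbn1* in place 13. Near genes of *Eln* were *Col5a3* (0.208), *D0H4S114* (0.22), *Apol9b* (0.229) and *Ccbe1* (0.235), at larger distances than for *Fbn1* or *Fbln2*. *Ly6a* belonged to the fibroblast markers above, and *Cd248* encodes endosialin, a surface protein of stromal cells and pericytes. All profiles share the same 6 libraries, and the distances are a description.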

How the data were processed

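ECFP+ OBs of day 10 (n = 3) and day 14 (n = 3) were grouped by their sample titles, which call them biological replicates. Whether each sample came from 1 mouse or from pooled mice is not given in the sources used here. The authors made cDNA with a SMART-Seq low-input kit, sequenced 75-base single-end reads and mapped them to mm10. The submitters' processing notes name TopHat2 2.0.13, Bowtie2 2.2.3, SAMtools 0.1.19 and Cufflinks 2.2.1. The authors deposited 1 FPKM value per gene and sample. The annotation, the strand setting and the handling of reads shared between genes are not given in the sources used here. In 1 sample, 25 symbols turned into dates were restored by position.

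Depth was estimated from 1977 genes at up to 0.3 FPKM, of which 74.7% to 79.5% of values lay within 0.1 of a whole number of reads. Log2(FPKM + 0.1) was compared with limma 3.58.1 in R 4.3.3 (mean-variance trend, day as the only factor) over the 19526 genes with a mean FPKM above 0.1, with Benjamini-Hochberg adjustment over these genes. Fold changes are those of FPKM + 0.1 and understate changes of low genes. Ratios within a sample were tested by two-sided exact permutation, which cannot give a p below 0.1 with 3 samples a day.

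The members and lists were chosen with earlier results of these data known. Named were all members, the 3 most abundant genes of each partner list, partner genes with an adjusted p under 0.05 or with days apart and over 2-fold different, the 2 most abundant markers of each list, and the 5 genes most like *Eln*, *Fbn1* and *Fbln2*, of which 1 gene is not reported here. Alternatives were other pseudocounts, filters, scalings and variance models, a replicate block, and leaving out each sample in turn. Coordinates are from GENCODE vM21 and count from 1.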

Additional observations from a re-analysis of the deposited data

How the results depend on the processing

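Under 14 alternatives, 137 of 140 values of single members kept their direction, and 1 passed an adjusted p under 0.05 from limma (*Fbln1* without day 14 replicate 2). The other filters, the other variance model and the replicate block leave each log2 fold change unchanged. They could therefore not reverse a direction. The log2 fold change of *Eln* ran from −0.115 to 0.813 when each sample was left out in turn, and that of *Efemp2* from −0.034 to 0.095. The log2 difference of the *Eln* to *Fbn1* ratio then ran from −0.731 to 0.069 (reversed without day 14 replicate 1) and that of the *Eln* to *Emilin1* ratio from −0.233 to 0.594 (reversed without day 14 replicate 3, and −0.037 without day 10 replicate 2). Leaving out each sample gave 0 to 1 members with an adjusted p under 0.05, 3 to 6 with an unadjusted p under 0.05 from limma, 3 to 5 over 2-fold and 2 to 8 without overlap. The median log2 fold change ran from 0.439 to 1.037 for the members and from 0.219 to 0.522 for the partner genes. Leaving out each sample gave, for partner genes, 7 to 16 higher and 0 to 3 lower with an unadjusted p under 0.05 from limma (3 lower without day 14 replicate 2, and 0 without replicate 1 or 2 of day 10 or replicate 1 or 3 of day 14), and without the mean-variance trend none (0) was lower. The cause was not tested beyond the smaller number of samples. Deviations from the day means of log2(FPKM + 0.1) were correlated across genes between same-numbered samples of both days. The correlations of these deviations were 0.058, −0.006 and 0.089, so the numbers were not taken to pair the samples. With the replicate number as a block, 5 members had an unadjusted p under 0.05 (6.15% of all genes were higher at that p), none had an adjusted p under 0.05 from limma, and the smallest p of a ratio is 0.25 for 3 pairs. With 3 samples a day and estimated depths of 4550000 to 7776000 reads, the spread between samples set the precision for all members.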
